A study of Mus musculus with 23 samples.

Results

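The caveolins were measured by 12 of the 18688 array features with a listed gene: 1 feature for Cav1, 10 features that all listed Cav2 and 1 for Cav3. A feature is 1 printed oligonucleotide spot, and the members were chosen by their listed gene symbol, with every feature kept. No level entered that rule, but the genes were taken up with results of these arrays in view, so the values below are a description of these mice and no independent support. Livers came from 23 female C57BL/6 mice, 12 to 13 weeks old by their labels, which inhaled carbon black (CB, Printex 90) or diesel exhaust particles (DEP, a standard reference material) at 20 mg/m3, or filtered air, for 90 min on each of 4 days. Tissue was taken 90 min after exposure by the labels, and the study's methods give a slightly different time and age. There were 8 CB, 7 DEP and 8 air mice, with 1 array per mouse. Whole-liver RNA was labelled with Cy5 and hybridised beside a commercial universal mouse reference RNA labelled with Cy3, with no dye swap, so every log2 ratio below is liver over reference and a dye bias of a feature is shared by all groups. Mice are named by their group and label number.

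Caveolins are integral membrane proteins that, together with the cavin coat proteins, shape caveolae, the small flask-like pits of the plasma membrane. Caveolin-1 forms the oligomers of the pit in most tissues, caveolin-2 joins these oligomers and depends on caveolin-1 to reach the cell surface, and caveolin-3 is the form of skeletal and heart muscle. Caveolae are abundant in endothelial cells, adipocytes and muscle and are sparse in hepatocytes. Cav2 and Cav1 are neighbours on chromosome 6, with 0 annotated genes between them, and Cav3 lies on the same chromosome with 643 protein-coding genes in between.

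Inhaled particles left no caveolin past the threshold of an adjusted p under 0.05. Cav2 had the higher average ratio in CB livers and in DEP livers than in air livers, Cav1 was lowest in DEP livers, and all these differences were within what the mice of a group varied by or failed the correction over all genes. Cav3 gave almost no signal above background. The 10 features of Cav2 spanned more than 1 log2 unit on 11 of 23 arrays, and the 9 features other than feature 29 did so on 3.

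Array brightness overlapped between the groups. The middle Cy5 signal per array lay at 241 to 477 in CB, 272 to 421.5 in DEP and 241 to 473 in air mice. The median Cy3 signal was 189 to 381 in CB, 213 to 304 in DEP and 206 to 400 in air mice. Between 25.2 and 44.5% of features were flagged absent in Cy5 on CB arrays, 23.5 to 42.0% on DEP arrays and 17.3 to 46.6% on air arrays. Exposure dates fell into 3 rounds. The earliest held 1 CB, 1 DEP and 2 air mice, the second round 6 CB, 2 DEP and 4 air mice, and the last round 1 CB, 4 DEP and 2 air mice. Hepatocyte markers (10 measured, among them Alb and Ttr) averaged a log2 ratio of 3.77 to 4.62 in CB, 3.64 to 4.52 in DEP and 3.89 to 4.42 in air mice. Of the 10, 7 were saturated on at least 1 array, and Alb was saturated on all 23.

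Cav1 had log2 ratios with a lowest value of -0.96 (CB 59), a median of -0.68 and a highest value of -0.41 (CB 446) in CB livers. In DEP livers the lowest was -1.37 (DEP 51), the median -0.93 and the highest -0.69 (DEP 835435), and in air livers the lowest was -1.00 (Air 835433), the median -0.75 and the highest -0.55 (Air 54). The groups overlapped: 1 of 8 CB mice lay above the highest air mouse and 3 of 7 DEP mice lay below the lowest. Means were -0.69 ± 0.17 in CB, -1.00 ± 0.29 in DEP and -0.79 ± 0.18 in air mice (SD, n = 8, 7 and 8).

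Cav1 differed from air by 0.10 on the log2 scale after CB (standard error 0.11, 95% interval -0.12 to 0.33, adjusted p = 0.936 by limma) and by -0.21 after DEP (standard error 0.11, 95% interval -0.44 to 0.02, adjusted p = 0.997). CB and DEP livers differed by 0.31 (standard error 0.11, 95% interval 0.08 to 0.54), a difference past 0.05 before adjustment in limma and at an adjusted p = 1.00 over 16915 genes. That value was 0.16 with median centring of the arrays, 0.52 within the last round, which held 1 CB mouse, and 0.64 from Cy5 alone. Without DEP 57, a choice made after the data were seen, Cy5 alone gave 0.36 and the ratio 0.32. Between CB and DEP 3.49% of all genes had an unadjusted p under 0.05, 5.84% did between CB and air, and 4.87% between DEP and air. The number of genes past an adjusted p of 0.05 in limma was 0 in all 3 comparisons (0% called). An Fs-like test with shrunken variances (below, the Fs test), run as an alternative, called 0 features. It is not the study's own Fs test, which used the study's normalization and did call some genes in both comparisons with air. Since whole liver was used, the number of caveolin-bearing cells and the caveolin RNA per cell cannot be told apart in any of these values.

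The signal behind the Cav1 ratio was low but mostly above background. Its Cy5 signal was 211 to 656.5 in CB, 128 to 441 in DEP and 251 to 739 in air livers. Relative to the highest Cy5 signal that was flagged absent on the same array, it had a median of 1.75 in CB, 1.32 in DEP and 2.29 in air mice. The feature was flagged absent on 1 array, DEP 57, in both channels. Cy5 alone, scaled to each array's 75th percentile, gave a DEP minus air difference of -0.52 and Cy3 alone one of -0.39 (limma adjusted p = 1.00 for each), and without DEP 57 these were -0.24 and -0.092 (limma adjusted p = 1.00 for each, chosen after the data were seen). The DEP minus air difference of the ratio was -0.22 without that array.

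Within rounds the DEP minus air difference of Cav1 was -0.22 in the second and -0.29 in the last round, and the CB minus air difference was 0.05 in the second and 0.23 in the last round, which held 1 CB mouse. The plot of the caveolin ratios by group shows this overlap.

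**Figure D1:**
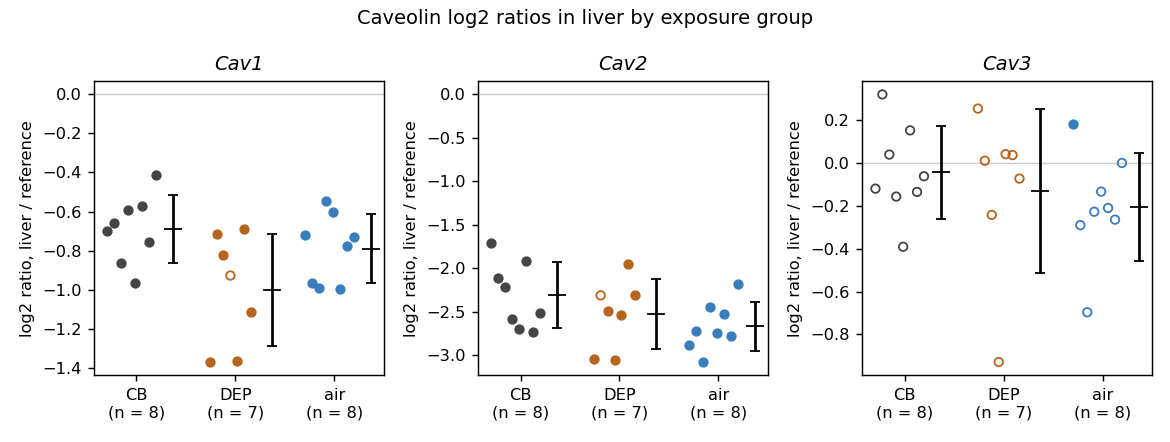
Log2 ratio of liver to reference (y axis) of Cav1, of Cav2 as the mean of its 10 features and of Cav3 in CB, DEP and air mice; points are mice, bars are the mean ± SD, and open points mark arrays on which every feature of the gene was flagged absent in Cy5. The groups overlap for each gene, and 22 of 23 points of Cav3 are open.

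Cav2, averaged over its 10 features on each array, had log2 ratios of -2.73 (CB 445) at the lowest, -2.36 at the median and -1.70 (CB 835052) at the highest in CB livers. DEP livers had -3.05 (DEP 57), -2.49 and -1.95 (DEP 835435), and air livers -3.08 (Air 53), -2.73 and -2.18 (Air 443). All 8 CB mice and 5 of 7 DEP mice lay above the median of the air mice, while 3 CB mice and 1 DEP mouse lay above the highest air mouse. Means were -2.31 ± 0.38 in CB, -2.53 ± 0.40 in DEP and -2.67 ± 0.28 in air mice (SD, n = 8, 7 and 8).

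The CB minus air difference of Cav2 was 0.36 (standard error 0.17, 95% interval 0.01 to 0.70), with an adjusted p = 0.854 in limma. It was past 0.05 before adjustment and so among the 5.84% of all genes given above. DEP minus air was 0.14 (standard error 0.17, 95% interval -0.22 to 0.50, adjusted p = 0.997) and CB minus DEP was 0.22 (standard error 0.17, 95% interval -0.14 to 0.57, adjusted p = 1.00). Over all genes the median difference was 0.00 in each comparison, which follows from the loess centring of each array. Within the second round Cav2 was higher than in air by 0.40 after CB and by 0.31 after DEP; within the last round the values were 0.72 after CB, with 1 CB mouse, and -0.01 after DEP. With median centring the CB minus air difference was 0.20. Without CB 835052 it was 0.27, and without DEP 835435 the DEP minus air difference was 0.05.

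Each Cav2 feature had a positive CB minus air difference, 10 of 10, where 50.2% of all features did. These features read the same RNA of the same mice and list the same transcript accession, so they count as 1 gene. Feature 29 had the largest difference of the 10, 1.22 (standard error 0.49), with a limma adjusted p = 0.827. Next came feature 13817 with 0.56 (standard error 0.25, adjusted p = 0.838 by limma) and feature 16468 with 0.45 (standard error 0.26, adjusted p = 0.873). The 7 others lay between 0.15 and 0.29. The 3 highest each leaned on 1 array: without CB 835052 feature 29 was at 0.77, and without CB 835436 feature 13817 was at 0.30 and feature 16468 at 0.22 (limma adjusted p = 0.909, 0.906 and 0.938, chosen after the data were seen). None of these 3 then had an unadjusted p under 0.05. In that comparison 5.94% of all features had an unadjusted p under 0.05, and 2 of the 10 Cav2 features, 29 and 13817, did.

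After DEP the 10 differences from air ran from 0.01 to 0.58, with feature 29 again the highest, where 50% of all features were above 0. None of the 10 had an unadjusted p under 0.05 in limma, as 4.82% of all features did, and 0 passed an adjusted p of 0.05. CB minus DEP differences ran from -0.04 to 0.65, with 8 of 10 above 0 where 49.9% of all features were, and 1 of the 10, feature 13817, had an unadjusted p under 0.05, as 3.44% of all features did; without CB 835436 it did not. Summarising the 10 features by their median gave 0.25 for CB minus air and 0.08 for DEP minus air, and leaving out feature 29, a choice made after the data were seen, gave 0.26 and 0.09. Without feature 29, 2 of 8 CB mice and 1 of 7 DEP mice lay above the highest air mouse, and 7 and 5 lay above the air median.

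**Figure D2:**
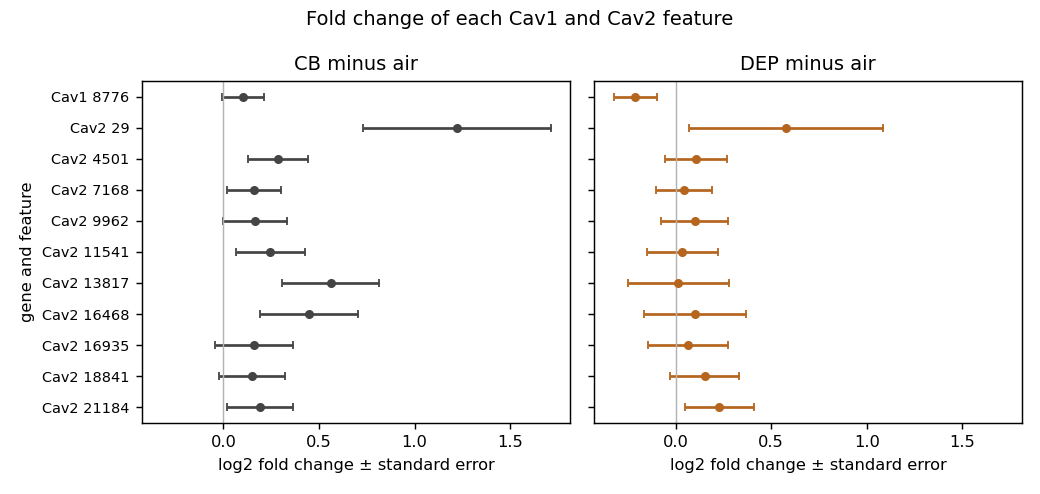
Log2 fold change (x axis) with its standard error for the Cav1 feature and each of the 10 Cav2 features, CB minus air and DEP minus air. Feature 29 stands at 1.22 after CB and 0.58 after DEP with the widest bars, and the Cav1 feature is the only one below 0 after DEP.

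The repeated features were then compared within mice, as a description. On 1 array the SD of the 10 log2 ratios had a median of 0.26, with the widest spread on CB 835052 (1.33) and the closest agreement on Air 53 (0.11). Without feature 29 the median was 0.18, with the widest spread on CB 835436 (0.85) and the closest agreement on Air 835433 (0.085). Over the mice, pairs of Cav2 features correlated with r of 0.24 to 0.86 and a median of 0.64 (45 pairs). Feature 29 correlated with each other feature at 0.24 to 0.51 (median 0.38), and the 36 pairs without it had a median of 0.69.

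Splitting the variation of the 230 Cav2 values gave an SD of 0.35 between mice, 0.26 between features and 0.41 for what remained. Without feature 29 these became 0.33, 0.03 and 0.26. The 9 other features thus had nearly the same average level, and mice differed by more than the remaining spread of 1 spot.

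Feature 29 was above the median of the other 9 on 23 of 23 arrays, by a median of 0.33 and by up to 4.08. It was the highest of the 10 on 13 arrays and over 1 above the others on 7. Its distance exceeded 0.75 on 8 arrays, 4 from CB, 3 from DEP and 1 from air mice. On CB 835052 its ratio was 2.04, against a median of -2.05 for the other features, with a Cy5 signal of 1919 against 229 and a Cy3 signal of 530 against 892. On CB 59 the ratio was -0.23 against -3.07, with a Cy5 signal of 274 against 327 and a Cy3 signal of 248 against 2326.5. DEP 56 resembled CB 59, with a Cy3 signal of 245 against 1002.5, whereas on DEP 835435 both channels took part, with a Cy5 signal of 556 against 226 and a Cy3 signal of 540.5 against 652.5.

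Those arrays show that feature 29 departed in different ways: through a dim reference channel on some and a bright liver channel on others. Its Cy3 signal was the lowest of the 10 on 15 arrays. In CB mice 4 of 8 and in DEP mice 3 of 7 of its ratios lay above the highest air mouse.

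Departures of the other features were rare. On CB 835436, feature 13817 stood 2.02 and feature 16468 1.64 above the median of the other features, with Cy3 signals of 121 and 165 where that median was 735. Feature 16468 stood 0.78 above it on Air 443. Feature 4501 had the brightest Cy3 signal of the 10 on 19 of 23 arrays. Over all arrays its median distance from the middle of the other features was 0.40 in Cy3, 0.26 in Cy5 and -0.14 in the ratio, on the log2 scale.

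**Figure D3:**
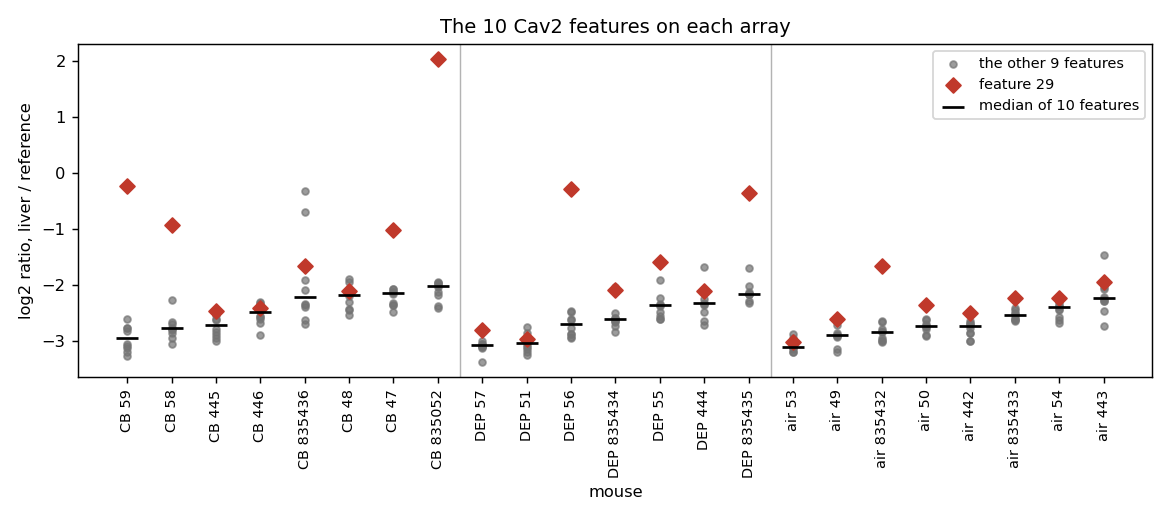
Log2 ratio (y axis) of the 10 Cav2 features on the array of each mouse (x axis), with CB, DEP and air mice from left to right and ordered by their median within a group. Diamonds mark feature 29, which lies above the median of the others on all 23 arrays, by up to 4.08 on CB 835052.

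Repeated printing was shared by other genes, which gave a measure for Cav2. Of 47 genes listed on at least 10 features, 44 listed a single accession (444 features). The median SD between features of 1 array ran from 0.105 to 0.442 over these 44 genes, with a median of 0.217, and at 0.261 Cav2 had 31 genes below it and 12 above it. By the remaining SD after mice and features, 0.41 for Cav2, only 2 of the other 43 genes were above it, where the median over the 44 was 0.215. Without feature 29 the remaining SD of Cav2 was 0.26, still above that median. The other genes kept their farthest features, so no rank is given for this value. Feature 29 had a root mean square distance of 1.36 from the other features of its gene, and no other of the 444 features had a larger one.

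**Figure D4:**
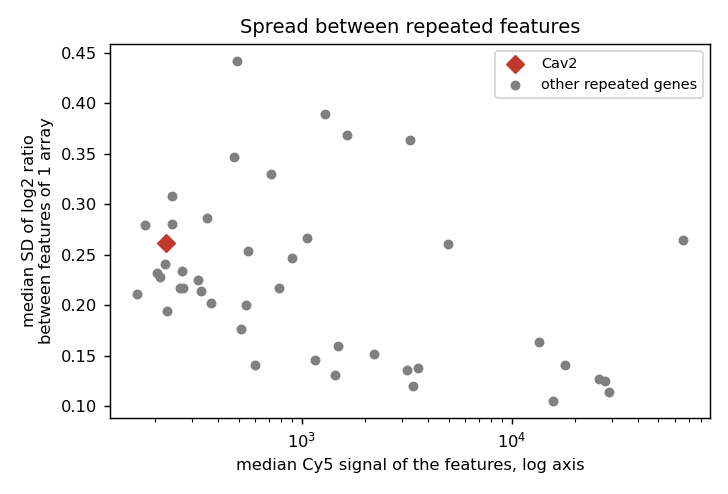
Median SD of the log2 ratio between features on 1 array (y axis) against the median Cy5 signal (x axis, log scale) for the 44 genes listed on at least 10 features with a single accession. Cav2 (diamond) sits at 0.261 among the dim genes, within the range of 0.105 to 0.442.

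The Cav2 spots were bright in the reference and dim in the liver. The mean Cy5 signal of the 10 features was 180 to 407 in CB, 200 to 342 in DEP and 177 to 255 in air livers. That was a median of 1.05, 1.07 and 1.05 times the highest signal flagged absent on the array. The 407 was on CB 835052, where feature 29 read 1919 and the median of the other features was 229. In Cy5, 39 of 80 Cav2 spots were flagged absent in CB (48.8%), 35 of 70 in DEP (50.0%) and 32 of 80 in air mice (40.0%), against 1 of 230 in Cy3. Over all features of an array the median share absent in Cy5 was 35.2% in CB, 37.0% in DEP and 28.0% in air mice. In Cy3 it was 27.3, 30.6 and 31.5%. The lower share in air mice was thus shared by the whole array. On DEP 55 all 10 features were flagged absent in Cy5. The mean Cy3 signal was 4.46 to 11.8 times the absent limit in CB, 4.77 to 12.4 times in DEP and 4.49 to 9.66 times in air mice.

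Over the 23 mice the Cav2 ratio was lower on brighter arrays, in either channel. It fell as the median Cy3 signal of the array rose, with Pearson's r of -0.68 (permutation p = 0.00045, adjusted p = 0.0018) and Spearman's rho of -0.75 (permutation p = 5e-05, adjusted p = 0.0002, over 8 relations). Without the 2 mice with the most extreme Cy3 medians, CB 48 and CB 47, r was -0.64, and within the second and the last round it was -0.58 (12 mice) and -0.67 (7 mice). The first round held too few mice. With the median Cy5 signal of the array r was -0.61 (permutation p = 0.002, adjusted p = 0.00533) and rho -0.65 (permutation p = 0.00098, adjusted p = 0.00261), with -0.55 without CB 59 and Air 53. The Cy3 and Cy5 signals of Cav2 itself are the parts of its ratio. Their relations to it (r = -0.84 and -0.30, rho = -0.85 and -0.32) are given as a description without their p. They were among the 8 relations of the adjustment. The Cy5 signal of Cav2 lay near background, which narrows its range. The array medians come from the same channels as the ratio, so the tests above cannot tell a change of Cav2 RNA from one of signal level.

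For Cav1 the relation did not pass the test. With the median Cy3 signal of the array r was -0.17 (permutation p = 0.448, adjusted p = 0.512) and rho -0.22 (permutation p = 0.308, adjusted p = 0.408), and r was -0.14 without CB 48 and CB 47. Among the 44 repeated genes the same r had a median of 0.09 and ran from -0.70 to 0.71, and 2 genes lay below Cav2. Acot9, Anxa8 and Mzb1, like Cav2 far below the reference (median log2 ratios of -2.29, -2.30 and -2.73), had r of -0.70, -0.52 and -0.37. Genes dim in both channels went both ways, such as Trp53rka (r = -0.68, median Cy3 signal 212) and 4930519G04Rik (r = 0.61, median Cy3 signal 187.5). Cav2 was unlike these, with a median Cy3 signal of 1139. With the array median of Cy3 as a covariate, an alternative added after the data were seen, Cav2 differed from air by 0.27 after CB and by 0.02 after DEP (limma adjusted p = 0.890 and 0.999). By channel, Cy5 of Cav2 was 0.31 above air after CB and 0.16 after DEP, and Cy3 differed by -0.15 after CB and by -0.02 after DEP, with adjusted p of 0.797, 1.00, 1.00 and 1.00 by limma. Feature 29 was kept in these values. How far array brightness enters the CB minus air difference was not tested beyond these values.

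**Figure D5:**
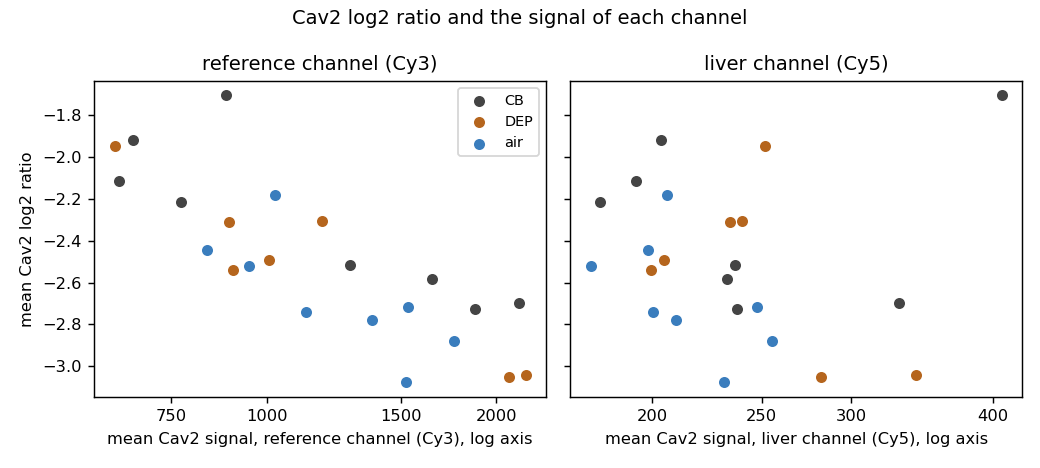
Mean Cav2 log2 ratio (y axis) against the mean Cav2 signal of the reference channel (left, r = -0.84) and of the liver channel (right, r = -0.30), both on log x axes; points are CB, DEP and air mice. Each signal is a part of the ratio. The liver signal lies near background and covers a narrow range, apart from CB 835052 at 407, where feature 29 alone read 1919.

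Cav3 was flagged absent in Cy5 on 22 of 23 arrays, all but Air 49, and in Cy3 on 19. Its log2 ratios were -0.39 to 0.32 in CB, -0.93 (DEP 57) to 0.25 in DEP and -0.70 to 0.18 in air livers. With both channels near background no fold change is given. Of 13 muscle markers measured, 1 (Myh4) was flagged absent in Cy5 on every array and 3 (Mylpf, Tnnc2 and Actc1) on none. The average over the list was -0.63 to -0.35 in CB, -0.82 to -0.47 in DEP and -0.64 to -0.32 in air mice.

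Cav1 and Cav2, whose proteins share an oligomer, were also compared between livers, and their relation did not pass the test. Pearson's r over 23 mice was 0.39 (permutation p = 0.0692, adjusted p = 0.104 over 3 caveolin pairs) and Spearman's rho 0.41 (permutation p = 0.0509, adjusted p = 0.0764). Without the 2 mice farthest from the median of Cav1, DEP 51 and DEP 835434, r was 0.32, and within the second and the last round it was 0.08 (12 mice) and 0.55 (7 mice). Cav2 with Cav3 gave r = 0.49 (permutation p = 0.0183, adjusted p = 0.0549) and rho = 0.44 (permutation p = 0.0365, adjusted p = 0.0764), with 0.52 without CB 835052 and CB 835436, although Cav3 was at background. Cav1 with Cav3 gave r = 0.09 (permutation p = 0.676) and rho = 0.19 (permutation p = 0.394), with 0.47 without DEP 51 and DEP 835434.

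Among 7011 features flagged absent in Cy5 on no array and never saturated, those most like Cav1 over the mice were Syne3 (nesprin-3, of the outer nuclear membrane) with r = 0.68 and rho = 0.59, Ctdspl (a phosphatase) with r = 0.68 but rho = 0.40, and Arc (a cytoskeleton-associated protein known from neurons) with r = 0.67 and rho = 0.58. For Cav2 they were Adgra2 (an adhesion receptor) with r = 0.84 and rho = 0.86, Recql (a DNA helicase) with r = 0.77 and rho = 0.79, and Tubg2 (a gamma-tubulin) with r = 0.76 and rho = 0.75. Like Cav2, these 3 fell with the median Cy3 signal of the array, with r of -0.58, -0.64 and -0.38. For Syne3, Ctdspl and Arc that r was -0.14, -0.15 and -0.48. The points of each pair share an array, and no p is given.

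The partners of caveolins in the pit did not pass the test either. Of 19 measured genes of the caveola coat and partner list, 0 were called by limma in either comparison with air. After CB 10 were above 0, with a median of 0.02, and 2 (10.5%) had an unadjusted p under 0.05, where 5.84% of all genes did. After DEP 9 were above 0, with a median of -0.00, and 2 (10.5%) had an unadjusted p under 0.05, where 4.87% of all genes did. In both comparisons these were Cavin3, which was above 0, and Flot1, which was below 0. Over all genes 50.4% were above 0 after CB and 50.3% after DEP.

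Cavin3, a cavin coat protein, averaged -1.73 ± 0.17 in CB, -1.71 ± 0.26 in DEP and -2.03 ± 0.23 in air livers (SD, n = 8, 7 and 8). Against air Cavin3 stood 0.30 higher in CB livers (standard error 0.11, limma adjusted p = 0.79) and 0.32 higher in DEP livers (standard error 0.12, limma adjusted p = 1.00). Flot1, a flotillin of membrane microdomains named here for its unadjusted p, averaged -0.19 ± 0.11, -0.18 ± 0.14 and -0.00 ± 0.14 in CB, DEP and air mice, and differed from air by -0.19 after CB (standard error 0.077, limma adjusted p = 0.82) and by -0.18 after DEP (standard error 0.079, limma adjusted p = 1.00). Cavin1, required for the formation of the pit, averaged -1.22 ± 0.32, -1.24 ± 0.24 and -1.34 ± 0.17 in CB, DEP and air mice, with 19 of its 46 spots flagged absent. Cavin2, which helps to bend the membrane, averaged -1.87 ± 0.18, -1.98 ± 0.26 and -1.76 ± 0.19. Cavin4, the muscle cavin, was flagged absent on all 23 arrays, which places it beside Cav3. Ehd2, the ATPase at the neck of the pit, averaged -1.00 ± 0.17, -0.88 ± 0.10 and -0.80 ± 0.31, and Pacsin2, which binds curved membranes, 0.17 ± 0.30, -0.00 ± 0.26 and 0.15 ± 0.12.

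Markers of the cells that carry caveolae were measured beside these genes, and 0 genes of any list were called by limma. Endothelial markers (15 measured) had a median difference from air of -0.05 after CB and 0.01 after DEP, and their average level was 0.85 to 1.21 in CB, 0.75 to 1.38 in DEP and 0.79 to 1.20 in air mice. Adipocyte markers (7) had medians of 0.15 and 0.01 and levels of 0.47 to 1.66, 0.23 to 1.07 and 0.43 to 0.68. Stellate cell and fibroblast markers (11) had medians of 0.04 and 0.07, muscle markers (13) 0.06 and -0.00, Kupffer cell and macrophage markers (7) -0.10 and -0.02, and cholangiocyte markers (5) 0.06 and 0.02. Hepatocyte markers (10) had medians of -0.21 and -0.16, pancreatic acinar markers (8) -0.10 and 0.08, and erythroid markers (4) -0.30 and -0.25. In Cy5, 7 hepatocyte and 2 erythroid markers were saturated on at least 1 array, among them Alb and Hba-a1 on all 23, which limits these 2 lists. The part of these cells in the caveolin values was not tested.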

How the data were processed

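Liver RNA of 23 mice was measured on 2-colour Agilent oligonucleotide arrays. The authors deposited Cy3 and Cy5 intensities on a linear scale without background subtraction, flags of absent spots, and log2 ratios that they had normalized by lowess in R 2.4.1. Here each array's deposited intensities were turned into log2 ratios by loess, using the features that have a listed gene (18688 of 22575; the remaining 3887 were left out). Features of 1 symbol were averaged per array. All groups were fitted in 1 model in limma 3.58.1 (R 4.3.3) with Benjamini-Hochberg adjustment at 0.05 over all features or genes. The test was checked on simulated data with known changes. Permutation tests (scipy 1.17.1, 100000 shuffles) were two-sided. The absent limit of an array was its highest signal flagged absent. Gene names came from the platform annotation, and gene order from the RefSeq table. No oligonucleotide sequences were used here.

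Features named were all caveolins, the cavins, Ehd2 and Pacsin2 and the 3 features most like Cav1 and Cav2. Members and lists were chosen with earlier results of these data known. The alternatives were the deposited ratios, median centring, the Cy5 signal alone, normexp (offset 50), leaving out features present on fewer than 7 arrays, exposure round or array set as a block, exposure day as a random block, single rounds, only the groups compared, array weights, an Fs test with 100 shuffles, a threshold of 0.1, other summaries of the Cav2 features and leaving out each mouse. Each mouse gave 1 array, and the number of arrays limits the precision.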

Additional observations from a re-analysis of the deposited data

Results flagged for a closer look

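Of 39 groups of mice looked at for a single value far from the others, 3 had one, and chance alone would give about 1 in 20. Feature 13817 of Cav2 had its highest CB value at -0.32 on CB 835436, where the next mouse had -1.89, and the spot was flagged absent in both channels. Feature 16468 of Cav2 had its highest air value at -1.47 on Air 443, where the next had -2.62. Cav3 had its lowest DEP value at -0.93 on DEP 57, where the next had -0.24, with the spot flagged absent in Cy5; DEP 57 was also the array on which Cav1 was flagged absent.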

How the results depend on the processing

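No paired analysis was possible because the mouse numbers of the groups are not shared. Of 231 alternative values of the Cav1 and Cav2 comparisons, 229 kept their direction and their side of the threshold, and the lowest adjusted p was 0.466. Many of these values could not change direction. Leaving out a mouse of a group outside a comparison kept the fold change, as did the Fs test, the filter and fitting only the groups compared. The main limma adjusted p were 0.854 or more, far from the threshold, so the count is no measure of robustness. Cav1 turned to -0.066 after CB with median centring, which moved the median of all genes by -0.10, and Cav2 turned to -0.012 after DEP within the last round, which holds fewer mice; the cause was not tested beyond this. Features called for CB minus air numbered 285 with median centring, 50 within the last round, 1 with array weights, 1 at a threshold of 0.1, and 0 to 1 without single mice (1 without CB 59 or Air 442). For CB minus DEP 100 were called within the last round, which held 1 CB mouse. Over all alternatives other than leaving out mice, Cav1 ran from -0.52 to -0.19 for DEP minus air and 0.16 to 0.64 for CB minus DEP, and Cav2 from 0.20 to 0.72 for CB minus air and 0.093 to 0.73 for CB minus DEP. Cy5 alone moved the median of all genes by 0.13 for CB minus air and 0.11 for CB minus DEP.

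Without single mice Cav1 ran from 0.06 to 0.14 for CB minus air, -0.26 to -0.15 for DEP minus air and 0.25 to 0.36 for CB minus DEP, and Cav2 from 0.27 to 0.43, 0.05 to 0.23 and 0.13 to 0.31. The r of Cav1 with Cav2 ran from 0.28 (without DEP 51) to 0.43 and passed 0.05 unadjusted without Air 835432, DEP 835434 or DEP 444 (permutation p = 0.0473, 0.0449 and 0.0424). The median SD of the Cav2 features was 0.18 with spots absent in neither channel (19 arrays), 0.19 with Cy5 alone, 0.23 with the deposited ratios and 0.29 with normexp. No alternatives were run for Cav3, which was near background, and signal close to background limits the Cav2 ratio on each array.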
